A study of Homo sapiens with 9 samples.

Results

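Interferon-stimulated genes were followed as a listed set of 33 genes, which includes the IFIT, OAS and MX families, the RNA sensors IFIH1 and DDX58, the transcription factors STAT2, IRF7 and IRF9, and the chemokines CXCL10 and CXCL11. Each symbol was matched to the count files by its Ensembl identifier, and all 33 of the 64253 counted genes were found. Of these, 24 were among the 16561 genes with enough reads to be tested, and 9 were not. The libraries came from IMR90 cells, a line of normal human fetal lung fibroblasts, in 3 groups of 3 libraries named a, b and c. Control cells carried the pLKO.1 lentiviral vector, which the sample labels call empty and the treatment protocol calls a GFP vector. The shRRM2 cells carried a hairpin that targets RRM2, a subunit of ribonucleotide reductase, whose products are the deoxyribonucleotides (dNTPs) that DNA synthesis needs. The series calls this state senescence induced by loss of dNTPs. The shRRM2/shp16 cells carried that hairpin and a second against p16, the product of CDKN2A that inhibits cell cycle kinases, and the series describes them as having bypassed senescence. Every group was grown at 2% oxygen, used at population doubling 30, exposed to a second lentivirus 24 hours after the first and selected with 3 ug/mL puromycin for 7 days. Lentiviral infection and selection are thus shared by the controls. There was 1 hairpin per gene and no group with the p16 hairpin alone, so the p16 hairpin was seen only on top of the RRM2 hairpin. Nothing in the labels tells if the 3 libraries of a group came from separate cultures, so the p-values measure only the spread between these libraries, which may be technical.

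Type I interferons bind the receptor chains IFNAR1 and IFNAR2, whose kinases JAK1 and TYK2 phosphorylate STAT proteins. STAT2 and IRF9 belong to the factor ISGF3, which binds the interferon-stimulated response element (ISRE) in the promoters of genes that block viral replication, sense foreign RNA or damp the signal. In fibroblasts, part of this program can also be switched on by DNA or RNA sensed in the cytosol, and an interferon response is a known feature of some senescent cultures.

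The hairpin targets were checked first. RRM2 averaged 485 CPM (counts scaled to library size by the TMM method) in control, 62.1 in shRRM2 and 177 in shRRM2/shp16, or 12.8% and 36.5% of control. RRM2 was thus higher in shRRM2/shp16 than in shRRM2 (log2 fold change 1.51). The p16 hairpin and the weaker loss of RRM2 cannot be told apart in that comparison. CDKN2A averaged 6.02, 6.50 and 4.28 CPM, and its counts cover all transcripts of the locus. The libraries held 15770895 to 24873291 counts in genes. Reads that the counting tallied under no feature made up 17.6% to 18.9% in control, 27.7% to 28.8% in shRRM2 and 23.5% to 24.4% in shRRM2/shp16. Such reads need not lie outside genes, and the part of this share in the results below was not tested. All 9 fibroblast markers passed the filter, with a summed level of 26522 to 27977 CPM in control and shRRM2 and 22860 to 23452 in shRRM2/shp16. Single markers moved, with 3 called higher and 6 lower in shRRM2 against control (33.3% and 66.7%, beside 29.0% and 31.8% of all tested genes). In shRRM2/shp16 against shRRM2, 2 were higher and 5 lower (22.2% and 55.6%, beside 31.9% and 29.1%). VIM fell in both comparisons (log2 fold changes -0.60 and -0.72), while PDGFRA (1.93) and COL3A1 (1.13) rose in the second. Markers of other cells summed to at most 3.30 CPM per list. Those of blood and immune cells summed to 1.13 to 1.85 CPM in control, 3.00 to 3.30 in shRRM2 and 2.10 to 2.43 in shRRM2/shp16, without overlap. Only 1 of these 7 markers, LYZ, had enough reads to test, so the sum need not reflect the others. LYZ (0.93) and CDH1 (1.08) were called higher in shRRM2 than in control, with CDH1 past the read filter only through shRRM2. LYZ was called lower in shRRM2/shp16 than in shRRM2 (-0.49). VWF was called higher in shRRM2/shp16 than in control (0.91), though these groups overlapped. Of these markers, SFTPC, KRT5, CD3E and CLEC4C were among those at 0 in all libraries, and the part of the marker differences in the results below was not tested. These are bulk samples, in which fewer cells expressing a gene and less RNA per cell cannot be told apart.

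In shRRM2 against control, 9 tested members were lower, among them OAS3 with a log2 fold change of -2.28, MX1 with -0.95 and IFIT1 with -0.91. The other lower members were IFIT3, IFIT5, IFI6, IFI35, IFI44 and USP18, and the 2 higher members were DDX58 and STAT2. The lower members are 37.5% of the 24, beside 31.8% of all 16561 tested genes called lower. The higher members are 8.33%, beside 29.0% of all tested genes called higher. The median log2 fold change of the tested members was -0.19, beside 0.00 for all tested genes. The share called lower lies close to that of all genes, and the share called higher lies under it.

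In shRRM2/shp16 against shRRM2, 14 tested members were higher, or 58.3% beside 31.9% of all tested genes, and 2 were lower, or 8.33% beside 29.1%. The higher members span CXCL10, IFIH1, OAS3, IFI35 and ISG20, which differed at least 2-fold, and IFIT1, IFIT2, IFIT3, MX2, IFI6, STAT2, USP18, HERC6 and IFITM1. DDX58 and EPSTI1 were the lower members. The median was 0.43 for the tested members and 0.01 for all tested genes. Against control, shRRM2/shp16 had 9 members higher, or 37.5% beside 30.0% of all tested genes, and 5 lower, or 20.8% beside 32.4%, with a median of 0.19 beside 0.015. The higher members there were IFIT2, ISG20, IFI35, IFIH1, STAT2, CXCL10, HERC5, HERC6 and IFITM1, and the lower ones IFIT1, IFIT5, MX1, OAS3 and EPSTI1. Over all genes of this last comparison 48.1% of calls were higher from the counts and 59.3% with limma on the deposited RPKM values. For shRRM2/shp16 against shRRM2 these shares were 52.3% and 61.9%. The 3 comparisons share libraries in pairs, so that a high or low shRRM2 value enters 2 of them. The tested members are those with enough reads, not the whole list. CXCL10 passed the read filter through its level in shRRM2/shp16 and had to differ there. Without CXCL10 and IFI44L, which reached the filter's CPM level in fewer than 2 groups, the counts were 2 higher and 9 lower, 13 and 2, and 8 and 5 of 22.

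**Figure D1:**
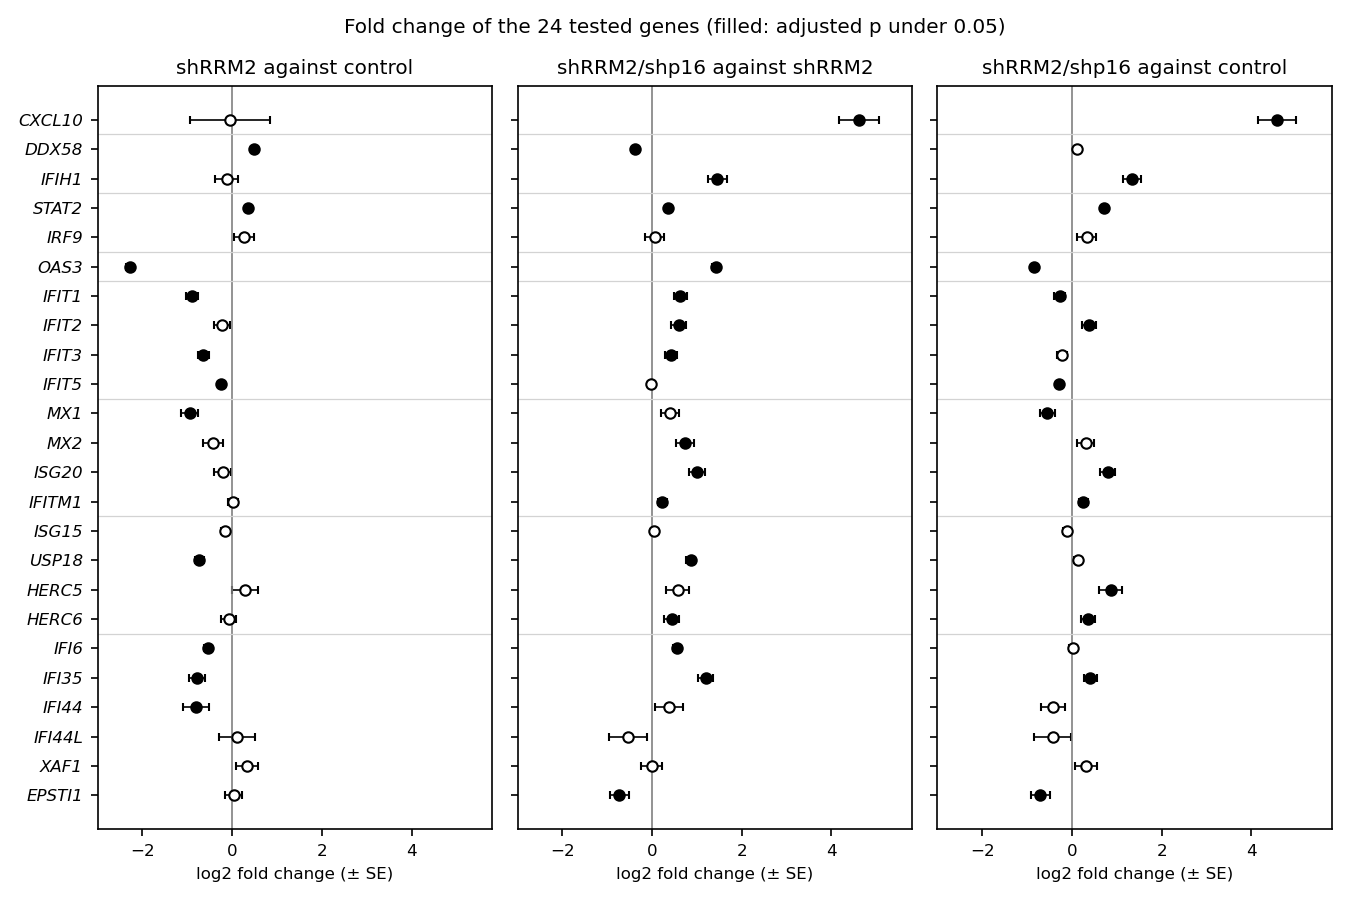
Fitted log2 fold change (x axis, bars are ± SE) of the 24 tested interferon-stimulated genes in each comparison, with filled circles for an adjusted p under 0.05. Most filled circles lie left of 0 in shRRM2 against control (9 of 11) and right of 0 in shRRM2/shp16 against shRRM2 (14 of 16).

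**Figure D2:**
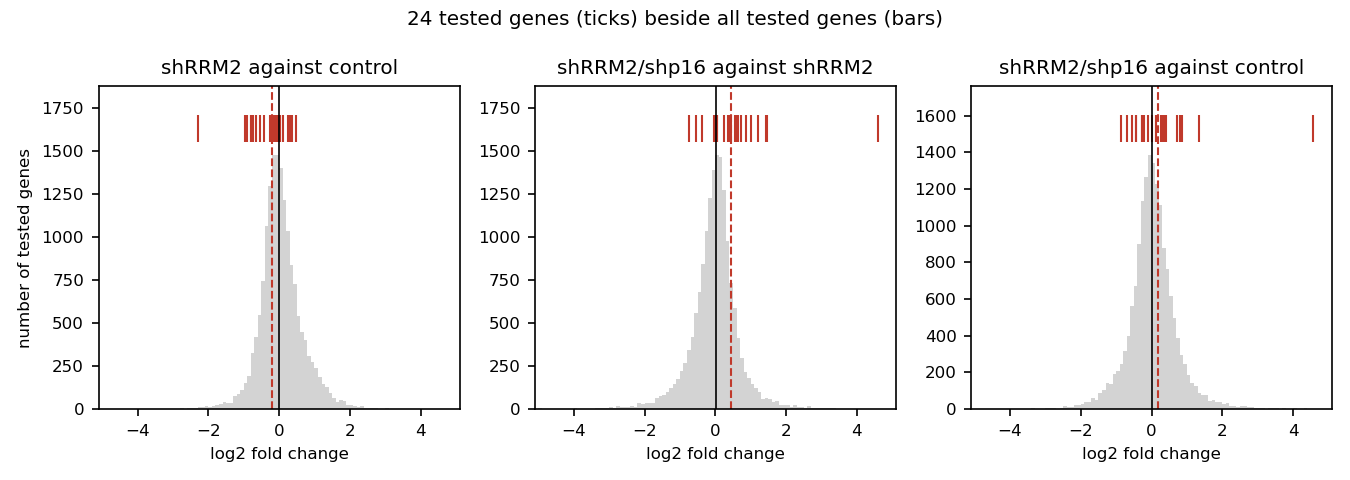
Log2 fold changes of the 24 tested members (red ticks, dashed line at their median) over the histogram of all 16561 tested genes (grey, solid line at the median, values past the axis in the end bins). The members' median lies at -0.19, 0.43 and 0.19, and most ticks lie within the central peak of the histogram.

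The promoters of 4 members called in at least 1 comparison are shown here, since they carry the sequence elements by which these genes are known to respond. The choice thus favours promoters with matches. STAT2, IFI35 and DDX58 separated every group but have no ISRE match in their windows and are not printed. OAS3 and IFIT1 were lower in shRRM2, while IFIH1 and CXCL10 were highest in shRRM2/shp16. Each is the 230 bases up to the base before the RefSeq transcription start (GRCh38.p14), read on the gene's strand. Capitals mark matches to the ISRE core (GAAANNGAAA, or TTTCNNTTTC on the other strand) and to the κB consensus bound by NF-κB.
OAS3 (chr12:112938244-112938473, plus strand): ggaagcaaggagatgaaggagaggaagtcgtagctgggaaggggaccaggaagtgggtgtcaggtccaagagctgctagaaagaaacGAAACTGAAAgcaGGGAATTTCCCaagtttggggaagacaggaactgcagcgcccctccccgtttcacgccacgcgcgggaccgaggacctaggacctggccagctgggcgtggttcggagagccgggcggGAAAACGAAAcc
IFIT1 (chr10:89392393-89392622, plus strand): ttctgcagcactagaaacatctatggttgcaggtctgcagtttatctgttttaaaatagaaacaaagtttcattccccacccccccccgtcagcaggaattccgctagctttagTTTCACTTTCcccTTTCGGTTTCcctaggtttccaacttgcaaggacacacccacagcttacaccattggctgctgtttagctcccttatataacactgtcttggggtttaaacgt
IFIH1 (chr2:162318685-162318914, minus strand): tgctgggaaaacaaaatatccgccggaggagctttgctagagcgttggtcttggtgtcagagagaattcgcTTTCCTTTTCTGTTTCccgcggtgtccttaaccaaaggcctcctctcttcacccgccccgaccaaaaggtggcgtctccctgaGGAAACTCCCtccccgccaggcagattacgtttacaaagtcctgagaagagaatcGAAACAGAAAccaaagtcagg
CXCL10 (chr4:76023498-76023727, minus strand): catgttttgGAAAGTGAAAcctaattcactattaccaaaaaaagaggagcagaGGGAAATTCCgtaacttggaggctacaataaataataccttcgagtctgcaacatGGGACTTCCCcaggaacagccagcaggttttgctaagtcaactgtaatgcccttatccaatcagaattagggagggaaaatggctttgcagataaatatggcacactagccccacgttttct
The OAS3 stretch holds ISRE matches that begin 143 and 12 bases before the start, with overlapping κB matches between them at 130 and 129. In IFIT1 the pair lies at 116 and 103, with no κB match. IFIH1 has overlapping ISRE matches at 159 and 153 that run together as 1 block of capitals, a κB match at 76 and a further ISRE match at 21. CXCL10 has its ISRE match at 221 and κB matches at 177 and 122.

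RefSeq promoter windows of 300 bases (250 before the start and 50 after) were found for 27 of the 33 members, with DDX58 listed under its current symbol RIGI. IFIT2, MX2, OAS2, OASL, IRF7 and USP18 were not matched. The ISRE core occurred in a window of 18 of the 27 members (66.7%), beside 4.38% of 27305 genes and 3.57% of 35116 windows. The gamma-activated sequence, or GAS element (TTCNNNGAA, its own reverse complement) occurred in 9 members (33.3%), beside 9.38% of genes and 7.66% of windows. In IFI27, BST2, IFITM1, EPSTI1 and MX1 a GAS match overlaps an ISRE match. The κB consensus, searched on both strands, occurred in OAS3, IFIH1, DDX58, CXCL10, CXCL11, XAF1 and BST2 (25.9%), beside 7.09% of genes and 5.91% of windows. Among the 15 tested members with an ISRE match, 7 were lower and 0 higher in shRRM2 against control, 8 were higher and 1 lower in shRRM2/shp16 against shRRM2, and 5 were higher and 5 lower in shRRM2/shp16 against control. The 6 tested members with a window but no ISRE match (IFI35, DDX58, STAT2, IRF9, HERC6 and XAF1) had 1 lower and 2 higher, then 3 higher and 1 lower, then 3 higher and 0 lower. Over all tested genes, 29.0% were higher and 31.8% lower in the first comparison, 31.9% and 29.1% in the second and 30.0% and 32.4% in the third. The difference between these sets was not tested, and a match describes letters in a window, not a bound site.

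**Figure D3:**
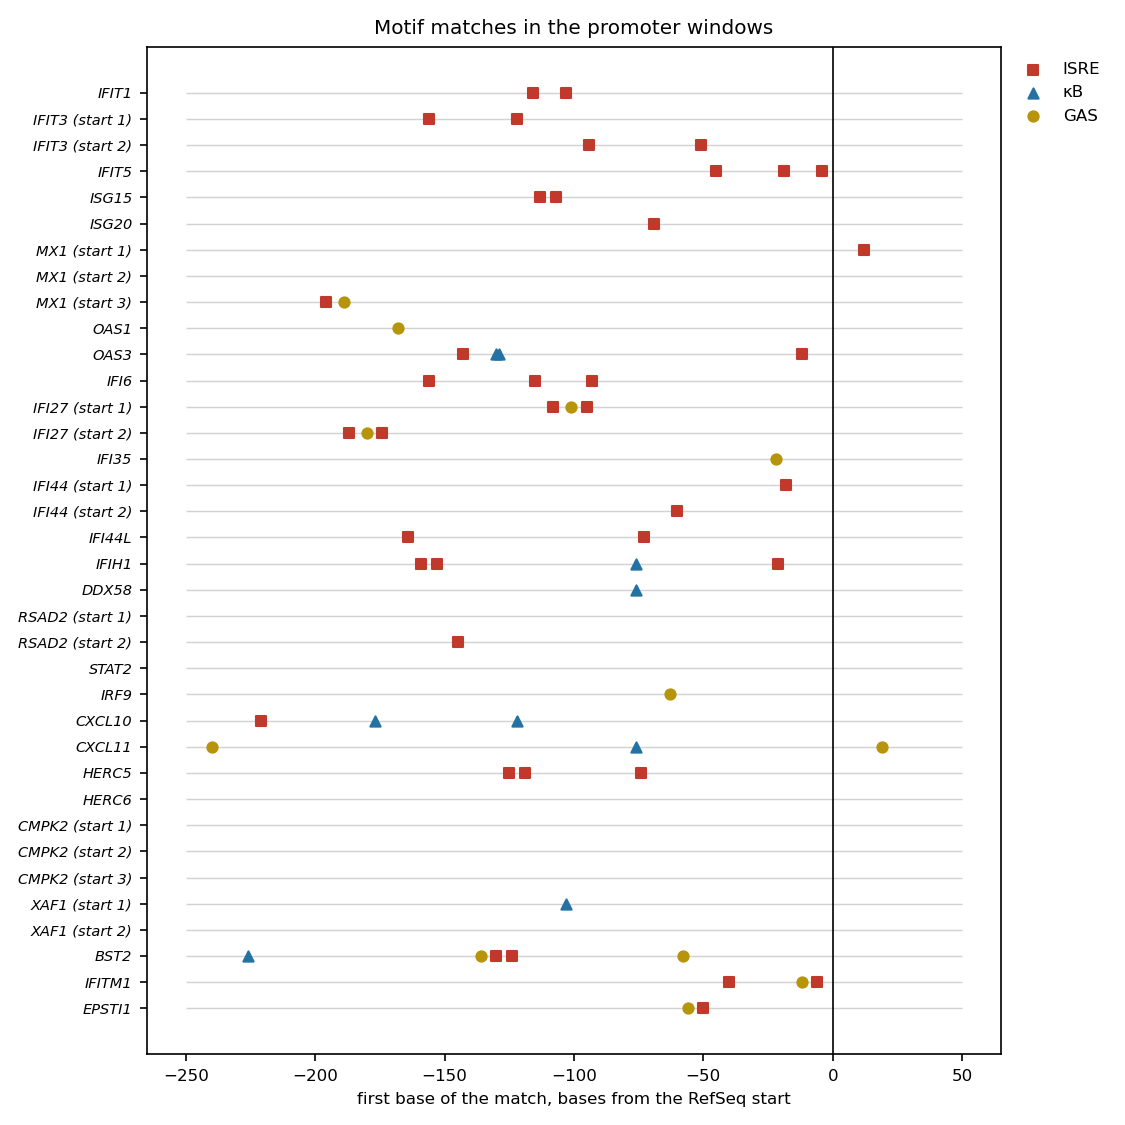
First base of each ISRE, κB and GAS match relative to the RefSeq start (x axis, bases) in the windows of the 27 matched members, with 1 line per start. ISRE matches lie from 221 bases before the start (CXCL10) to 12 bases after it (MX1), and κB matches appear in 7 members.

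The OAS enzymes make short 2'-5' linked adenylates from ATP when they bind double-stranded RNA, and these activate the nuclease RNase L. OAS3 (chr12:112938352-112973249, plus strand, GRCh38) measured 45.1, 42.8 and 39.9 CPM in the control libraries, 7.43, 9.92 and 8.90 in shRRM2 and 23.7, 22.3 and 25.1 in shRRM2/shp16. The groups did not overlap, with shRRM2 at 20.6% and shRRM2/shp16 at 55.7% of the control mean. Its log2 fold change was -2.28 ± 0.079 for shRRM2 over control (edgeR adjusted p = 3.0e-27), 1.43 ± 0.087 for shRRM2/shp16 over shRRM2 (adjusted p = 1.3e-18) and -0.85 ± 0.064 for shRRM2/shp16 over control (adjusted p = 1.0e-15). OAS3 was the only member called with a fall of at least 2-fold in shRRM2, and its 3 calls held in all 18 alternative settings. The neighbouring OAS1 and OAS2 and the related OASL had too few reads for the test. OAS1 had 9, 3 and 5 reads in control, 0, 1 and 3 in shRRM2 and 4, 3 and 6 in shRRM2/shp16. OAS2 had 10, 4 and 9 reads in control, 0, 1 and 1 in shRRM2 and 2, 2 and 7 in shRRM2/shp16. Scaled sums of these reads gave shRRM2-to-control ratios of 0.273 for OAS1 (exact 95% interval 0.0668 to 0.836) and 0.101 for OAS2 (0.0115 to 0.408), which cover counting error only. OASL had 9, 4 and 4 reads in control, 3, 2 and 5 in shRRM2 and 6, 12 and 6 in shRRM2/shp16, and its intervals include no change in each comparison. OAS1, OAS2 and OAS3 lie over a gene on the opposite strand, and the strand setting of the counting is not given in the sources used here.

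IFIT proteins bind viral RNA, IFIT1 by its cap and IFIT2 and IFIT3 as its partners, and their genes stand side by side on chromosome 10. IFIT1 (chr10:89392546-89406486, plus strand), whose promoter is printed above, measured 7.25, 6.60 and 7.63 CPM in the control libraries, 3.24, 3.46 and 4.71 in shRRM2 and 5.65, 6.17 and 5.91 in shRRM2/shp16. All shRRM2 libraries lay under all others, and shRRM2/shp16 lay between, with no overlap. IFIT1 had a log2 fold change of -0.91 ± 0.135 for shRRM2 over control (edgeR adjusted p = 1.9e-07), 0.63 ± 0.14 for shRRM2/shp16 over shRRM2 (adjusted p = 1.5e-04) and -0.27 ± 0.12 for shRRM2/shp16 over control (adjusted p = 0.0447). The last call was lost in 11 of 18 alternatives. IFIT3 measured 7.00, 7.32 and 7.92 CPM in the control libraries, 4.13, 4.50 and 5.51 in shRRM2 and 6.07, 6.57 and 6.34 in shRRM2/shp16. It too was lowest in shRRM2, without overlap, and the other groups also did not overlap. Its log2 fold change was -0.64 ± 0.124 for shRRM2 over control (edgeR adjusted p = 2.2e-05), 0.42 ± 0.128 for shRRM2/shp16 over shRRM2 (adjusted p = 0.00431) and -0.22 ± 0.114 for shRRM2/shp16 over control (adjusted p = 0.091).

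IFIT2 measured 3.06, 3.52 and 2.98 CPM in the control libraries, 2.10, 3.00 and 3.04 in shRRM2 and 4.49, 4.03 and 3.87 in shRRM2/shp16. The shRRM2/shp16 libraries were the highest, while control and shRRM2 overlapped. IFIT2 had a log2 fold change of -0.22 ± 0.174 for shRRM2 over control (edgeR adjusted p = 0.278), 0.60 ± 0.166 for shRRM2/shp16 over shRRM2 (adjusted p = 0.00191) and 0.38 ± 0.156 for shRRM2/shp16 over control (adjusted p = 0.0337), and the last call was lost in 6 alternatives. IFIT5, next to IFIT1 in the cluster, averaged 24.7 ± 0.712 CPM in control, 20.7 ± 1.16 in shRRM2 and 20.4 ± 1.53 in shRRM2/shp16 (SD, n = 3). Its log2 fold change was -0.25 ± 0.069 for shRRM2 over control (edgeR adjusted p = 0.00169), -0.03 ± 0.071 for shRRM2/shp16 over shRRM2 (adjusted p = 0.757) and -0.28 ± 0.067 for shRRM2/shp16 over control (adjusted p = 4.0e-04). IFIT1, IFIT2 and IFIT3 lie over LIPA, which encodes a lysosomal lipase on the opposite strand and averaged 35.6 CPM in control, 49.0 in shRRM2 and 26.5 in shRRM2/shp16. The part of LIPA reads in the IFIT values was not tested.

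MX1 and MX2 encode dynamin-like GTPases that trap viral nucleocapsids. MX1 measured 3.60, 3.24 and 5.12 CPM in the control libraries, 1.90, 2.02 and 2.18 in shRRM2 and 2.75, 2.49 and 2.85 in shRRM2/shp16. Control replicate c was the highest library, shRRM2 the lowest group, and the groups did not overlap. MX1 had a log2 fold change of -0.95 ± 0.187 for shRRM2 over control (edgeR adjusted p = 2.6e-05), 0.40 ± 0.201 for shRRM2/shp16 over shRRM2 (adjusted p = 0.0827) and -0.55 ± 0.171 for shRRM2/shp16 over control (adjusted p = 0.0049). Without control replicate c, the difference of shRRM2/shp16 from control lost its call, as it did with limma on RPKM. MX2 measured 2.31, 1.85 and 2.74 CPM in the control libraries, 2.16, 1.44 and 1.55 in shRRM2 and 2.96, 2.89 and 2.69 in shRRM2/shp16. Its shRRM2/shp16 libraries lay above all shRRM2 libraries, and control overlapped with both. MX2 had log2 fold changes of -0.43 ± 0.215 for shRRM2 over control (edgeR adjusted p = 0.0844), 0.74 ± 0.207 for shRRM2/shp16 over shRRM2 (adjusted p = 0.00206) and 0.31 ± 0.189 for shRRM2/shp16 over control (adjusted p = 0.149).

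ISG20 encodes an exonuclease that degrades single-stranded RNA. It measured 3.19, 2.57 and 2.74 CPM in the control libraries, 1.71, 3.23 and 2.41 in shRRM2 and 4.97, 4.43 and 5.54 in shRRM2/shp16. The shRRM2/shp16 libraries lay above all 6 others, while control and shRRM2 overlapped. The log2 fold change of ISG20 was -0.21 ± 0.193 for shRRM2 over control (edgeR adjusted p = 0.348), 1.01 ± 0.174 for shRRM2/shp16 over shRRM2 (adjusted p = 2.8e-06) and 0.79 ± 0.163 for shRRM2/shp16 over control (adjusted p = 4.4e-05). IFITM1, a membrane protein that hinders the entry of viruses, averaged 7.51 ± 0.541 CPM in control, 7.65 ± 0.428 in shRRM2 and 8.996 ± 0.446 in shRRM2/shp16 (SD, n = 3). Its log2 fold changes of 0.23 ± 0.104 for shRRM2/shp16 over shRRM2 (edgeR adjusted p = 0.0493) and 0.25 ± 0.101 for shRRM2/shp16 over control (adjusted p = 0.0279) were lost in 16 and 4 of 18 alternatives. IFITM1 overlaps its near copy IFITM2, also on the plus strand, which makes its reads uncertain. BST2, which encodes tetherin, a protein that holds budding virions at the cell surface, had 6, 3 and 3 reads in control, 5, 3 and 3 in shRRM2 and 14, 9 and 11 in shRRM2/shp16. The scaled ratio was 2.71 (exact 95% counting interval 1.34 to 5.93) against shRRM2 and 2.88 (1.45 to 6.11) against control, at under 1 CPM in each library.

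**Figure D4:**
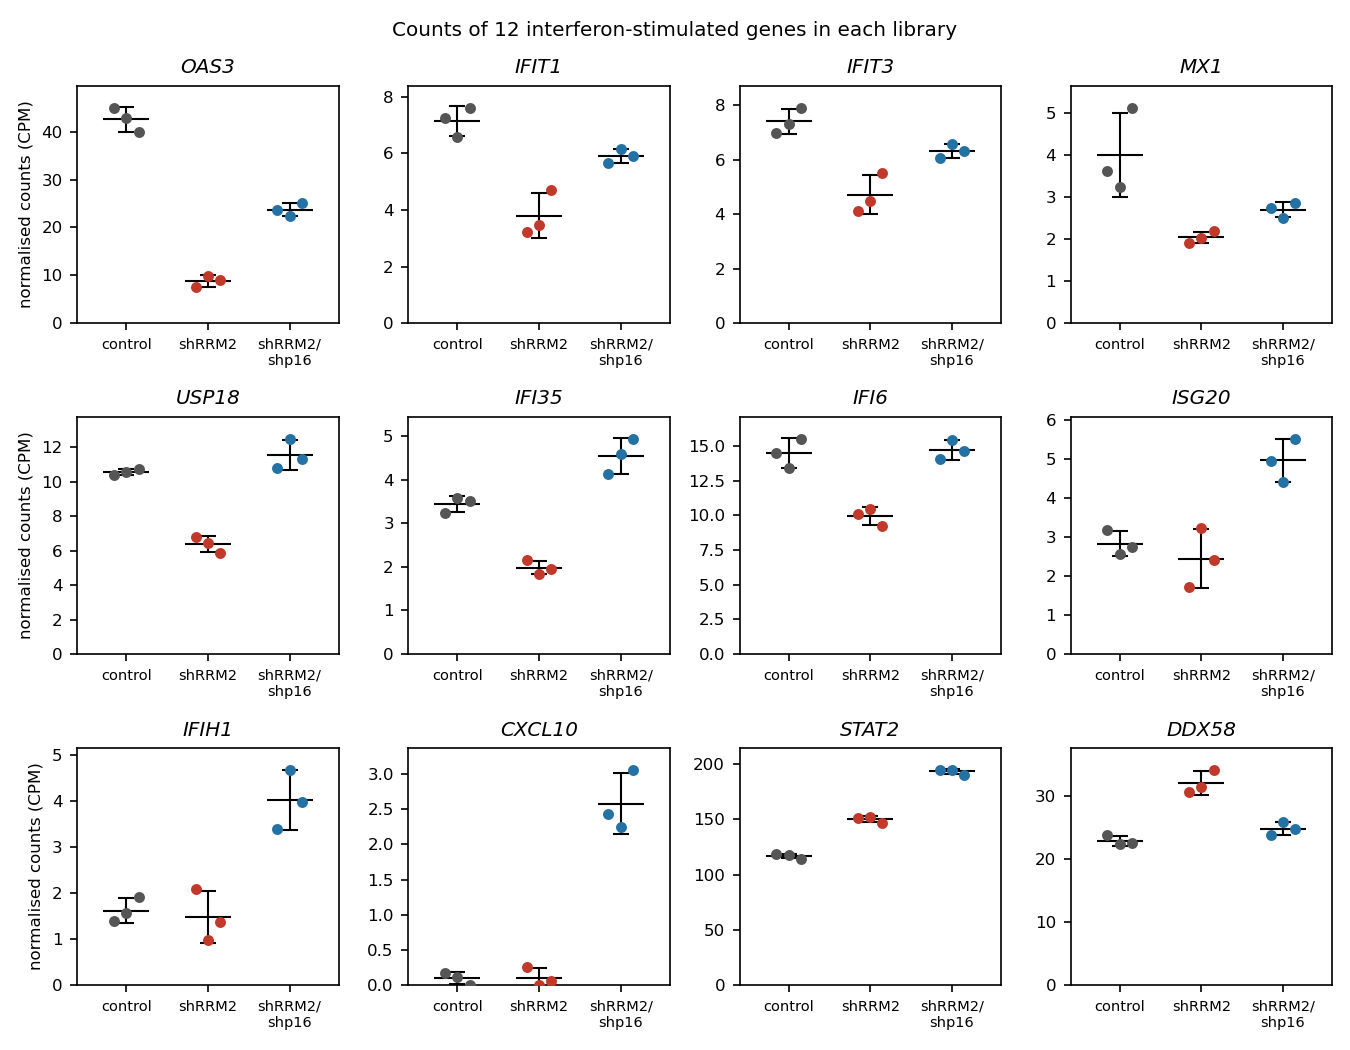
Normalised counts (y axis, CPM, linear from 0) of 12 members in each of the 9 libraries, where points are libraries and black bars are means ± SD of 3. OAS3, IFIT1, IFIT3, MX1, USP18, IFI35 and IFI6 are lowest in shRRM2, ISG20, IFIH1, CXCL10 and STAT2 are highest in shRRM2/shp16, and DDX58 is highest in shRRM2.

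The cytosolic RNA sensors IFIH1 (MDA5) and DDX58 (RIG-I) signal through the adaptor MAVS to IRF3 and NF-κB. IFIH1 (chr2:162267079-162318703, minus strand) measured 1.38, 1.57 and 1.91 CPM in the control libraries, 2.10, 0.981 and 1.38 in shRRM2 and 3.38, 4.68 and 3.98 in shRRM2/shp16. Each shRRM2/shp16 library was above all control and shRRM2 libraries, which overlapped. The log2 fold change of IFIH1 was -0.12 ± 0.254 for shRRM2 over control (edgeR adjusted p = 0.706), 1.45 ± 0.213 for shRRM2/shp16 over shRRM2 (adjusted p = 1.2e-07) and 1.33 ± 0.202 for shRRM2/shp16 over control (adjusted p = 2.1e-07). Both calls held in all 18 alternatives. DDX58 (chr9:32455705-32526324, minus strand) averaged 22.9 ± 0.786 CPM in control, 32.0 ± 1.86 in shRRM2 and 24.8 ± 1.04 in shRRM2/shp16 (SD, n = 3), with shRRM2 the highest group. DDX58 had a log2 fold change of 0.48 ± 0.063 for shRRM2 over control (edgeR adjusted p = 8.4e-09), -0.37 ± 0.062 for shRRM2/shp16 over shRRM2 (adjusted p = 1.7e-06) and 0.11 ± 0.064 for shRRM2/shp16 over control (adjusted p = 0.12). The shRRM2/shp16 libraries thus had the higher IFIH1 and the lower DDX58 level, each against shRRM2. The κB consensus occurs in the promoter window of both genes, and the ISRE core in that of IFIH1.

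STAT2 carries the transactivation domain of ISGF3, and IRF9 its DNA contact. STAT2 (chr12:56341597-56360155, minus strand) measured 119, 118 and 115 CPM in the control libraries, 151, 153 and 147 in shRRM2 and 195, 195 and 190 in shRRM2/shp16. The 3 groups were ordered control, shRRM2 and shRRM2/shp16, with no overlap. Its log2 fold change was 0.36 ± 0.034 for shRRM2 over control (edgeR adjusted p = 1.7e-12), 0.36 ± 0.032 for shRRM2/shp16 over shRRM2 (adjusted p = 2.7e-13) and 0.73 ± 0.033 for shRRM2/shp16 over control (adjusted p = 2.6e-23), and all 3 calls held in every one of the 18 alternatives. IRF9 averaged 1.75 ± 0.214 CPM in control, 2.09 ± 0.316 in shRRM2 and 2.17 ± 0.366 in shRRM2/shp16 (SD, n = 3), and none of its differences was called. A second identifier under the symbol IRF9 overlaps it on the same strand and held 175 reads over the libraries, beside 331 for the one used. IRF7, the factor that amplifies interferon production, had 5, 4 and 1 reads in control, 2, 5 and 2 in shRRM2 and 2, 4 and 1 in shRRM2/shp16, too few to test. A second identifier under the symbol IRF7 held 5 reads over the libraries, beside 26 for the one used. Whether reads were split between these identifiers or lost was not tested, so the IRF7 level is uncertain.

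ISG15 is a ubiquitin-like protein that is attached to other proteins by ligases such as HERC5 and removed by USP18, which also damps signalling at IFNAR2. ISG15 averaged 16.8 ± 1.18 CPM in control, 15.1 ± 0.980 in shRRM2 and 15.7 ± 0.619 in shRRM2/shp16 (SD, n = 3), and none of its differences was called (edgeR adjusted p = 0.0677, 0.582 and 0.207). USP18 (chr22:18149899-18177397, plus strand) measured 10.4, 10.6 and 10.7 CPM in the control libraries, 6.79, 6.46 and 5.85 in shRRM2 and 10.8, 12.5 and 11.3 in shRRM2/shp16. The shRRM2 libraries lay under all others, and the shRRM2/shp16 libraries lay just above the control ones. USP18 had a log2 fold change of -0.73 ± 0.104 for shRRM2 over control (edgeR adjusted p = 7.5e-08), 0.86 ± 0.103 for shRRM2/shp16 over shRRM2 (adjusted p = 1.0e-09) and 0.13 ± 0.09 for shRRM2/shp16 over control (adjusted p = 0.207). USP18 has near-identical partial copies in the genome, and reads that aligned to several places may not have been counted, so its level is uncertain.

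HERC5 measured 0.964, 0.727 and 1.07 CPM in the control libraries, 0.952, 1.04 and 1.38 in shRRM2 and 2.01, 1.59 and 1.45 in shRRM2/shp16. The shRRM2/shp16 libraries were the highest, and control and shRRM2 overlapped. HERC5 had log2 fold changes of 0.29 ± 0.29 for shRRM2 over control (edgeR adjusted p = 0.4), 0.58 ± 0.258 for shRRM2/shp16 over shRRM2 (adjusted p = 0.0511) and 0.86 ± 0.261 for shRRM2/shp16 over control (adjusted p = 0.00381). Its difference between shRRM2/shp16 and shRRM2 was called, with the same sign, in 6 of 18 alternatives. The related HERC6 averaged 3.09 ± 0.155 CPM in control, 2.93 ± 0.603 in shRRM2 and 3.95 ± 0.435 in shRRM2/shp16 (SD, n = 3). Its log2 fold changes of 0.44 ± 0.167 for shRRM2/shp16 over shRRM2 (edgeR adjusted p = 0.0211) and 0.36 ± 0.16 for shRRM2/shp16 over control (adjusted p = 0.0478) were lost in 4 and 9 of 18 alternatives.

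CXCL10 and CXCL11 are chemokines that draw T cells through the receptor CXCR3. CXCL10 (chr4:76021117-76023497, minus strand) had 4, 2 and 0 reads in control, 4, 0 and 1 in shRRM2 and 46, 45 and 57 in shRRM2/shp16. In CPM, the shRRM2/shp16 libraries measured 2.43, 2.24 and 3.06 and every other library at most 0.254. The scaled ratio of summed reads was 25.9 against shRRM2 (exact 95% counting interval 10.9 to 81.1) and 25.1 against control (11.2 to 69.4). The edgeR adjusted p was 3.6e-12 and 8.2e-13 in these comparisons and 0.971 in shRRM2 against control. CXCL10 passed the read filter only through its level in shRRM2/shp16 and had to differ there, so the first 2 of these p-values add no separate support. CXCL11, next to CXCL10 on chromosome 4, had 2, 1 and 1 reads in control, 5, 0 and 1 in shRRM2 and 2, 5 and 2 in shRRM2/shp16, and its intervals include no change. Both lie over ART3 on the opposite strand, which averaged 0.161 CPM in control, 0.395 in shRRM2 and 0.313 in shRRM2/shp16, and the part of ART3 reads in the CXCL10 values was not tested.

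Several members have less defined antiviral roles. IFI35, which encodes a leucine zipper protein that partners with NMI, measured 3.23, 3.58 and 3.52 CPM in the control libraries, 2.16, 1.85 and 1.95 in shRRM2 and 4.12, 4.58 and 4.95 in shRRM2/shp16. The groups did not overlap, with shRRM2 lowest and shRRM2/shp16 highest. The log2 fold change of IFI35 was -0.79 ± 0.178 for shRRM2 over control (edgeR adjusted p = 1.9e-04), 1.20 ± 0.169 for shRRM2/shp16 over shRRM2 (adjusted p = 5.0e-08) and 0.41 ± 0.146 for shRRM2/shp16 over control (adjusted p = 0.0136), and the last call was lost in 3 alternatives. IFI6, a small mitochondrial and endoplasmic reticulum protein, averaged 14.5 ± 1.07 CPM in control, 9.94 ± 0.643 in shRRM2 and 14.7 ± 0.694 in shRRM2/shp16 (SD, n = 3). IFI6 had a log2 fold change of -0.54 ± 0.089 for shRRM2 over control (edgeR adjusted p = 1.2e-06), 0.57 ± 0.089 for shRRM2/shp16 over shRRM2 (adjusted p = 4.8e-07) and 0.02 ± 0.081 for shRRM2/shp16 over control (adjusted p = 0.816). The first of these was lost in 2 of the limma settings on RPKM. IFI44 measured 1.59, 1.34 and 1.61 CPM in the control libraries, 0.444, 0.981 and 1.15 in shRRM2 and 1.48, 1.05 and 0.860 in shRRM2/shp16. Its shRRM2 libraries lay under all control libraries, and shRRM2/shp16 overlapped with both. The log2 fold change of IFI44 was -0.80 ± 0.293 for shRRM2 over control (edgeR adjusted p = 0.0172), 0.37 ± 0.312 for shRRM2/shp16 over shRRM2 (adjusted p = 0.306) and -0.43 ± 0.269 for shRRM2/shp16 over control (adjusted p = 0.168), and its call was lost with DESeq2 and without control replicate a or shRRM2 replicate a.

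EPSTI1, first found as a gene that epithelial cells induce on contact with stroma, measured 2.85, 2.29 and 2.32 CPM in the control libraries, 2.98, 2.48 and 2.30 in shRRM2 and 1.48, 1.34 and 1.83 in shRRM2/shp16. The shRRM2/shp16 libraries were the lowest, and the other groups overlapped. EPSTI1 had log2 fold changes of 0.03 ± 0.191 for shRRM2 over control (edgeR adjusted p = 0.895), -0.74 ± 0.211 for shRRM2/shp16 over shRRM2 (adjusted p = 0.00258) and -0.70 ± 0.206 for shRRM2/shp16 over control (adjusted p = 0.00299). It was the only member called lower by over 1.5-fold in shRRM2/shp16 against shRRM2. IFI44L averaged 0.672 ± 0.119 CPM in control, 0.752 ± 0.533 in shRRM2 and 0.502 ± 0.208 in shRRM2/shp16 and XAF1, an antagonist of the caspase inhibitor XIAP, 1.20 ± 0.0638 CPM in control, 1.501 ± 0.143 in shRRM2 and 1.49 ± 0.264 in shRRM2/shp16 (SD, n = 3). Neither was called in any comparison.

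RSAD2 (viperin), which makes a chain-terminating nucleotide, and its neighbour CMPK2, a mitochondrial nucleotide kinase, were too low to test. RSAD2 had 7, 2 and 4 reads in control, 1, 4 and 3 in shRRM2 and 3, 7 and 7 in shRRM2/shp16. CMPK2 had 10, 8 and 6 reads in control, 5, 7 and 9 in shRRM2 and 11, 8 and 1 in shRRM2/shp16. IFI27, a mitochondrial protein gene often used to score interferon responses in blood, had 7, 11 and 3 reads in control, 8, 3 and 7 in shRRM2 and 3, 5 and 4 in shRRM2/shp16. A second identifier under the symbol IFI27 held 0 reads, and whether reads were lost between the identifiers was not tested. The exact 95% counting intervals of these 3 genes include a ratio of 1 in each comparison, which at this depth does not show that their levels were equal.

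Levels per length were compared in RPKM (reads scaled to gene length and to the reads in genes). STAT2 was the highest member in every group, at 18.5 RPKM in control, 24.4 in shRRM2 and 32.8 in shRRM2/shp16. ISG15 followed in control with 17.2 and IFI6 with 16.2. The lowest tested member was IFI44L at 0.0634, 0.0731 and 0.0509 RPKM. The tested members had a median of 0.799, 0.659 and 1.28 RPKM, beside 3.30, 3.33 and 3.60 for all tested genes, so the set as a whole was expressed at a low level in each group. By mean RPKM, CXCL10 stood in place 27 of the 33 in control, 25 in shRRM2 and 11 in shRRM2/shp16. OAS3 stood in places 7, 9 and 8.

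**Figure D5:**
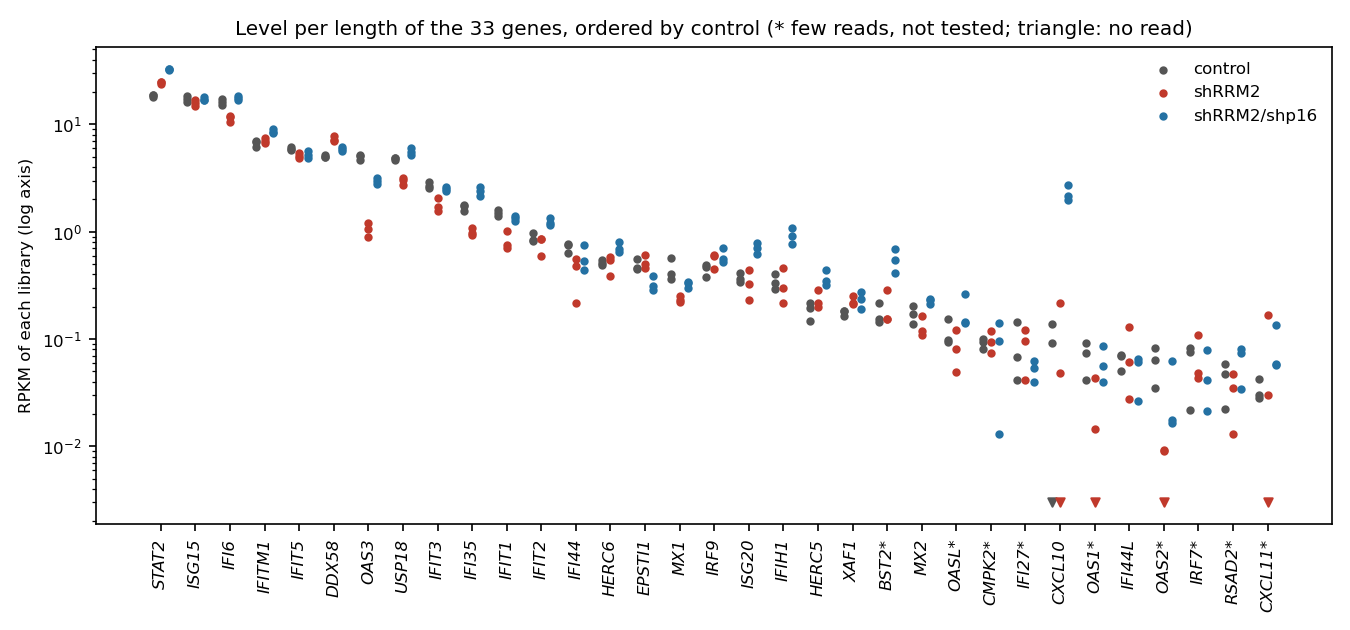
Level of all 33 members in each library (y axis, RPKM, log axis), ordered by the control mean, with stars for members that had too few reads to test and triangles for libraries with no read. STAT2, ISG15 and IFI6 lead with over 10 RPKM, and CXCL10 in shRRM2/shp16 stands apart from its control and shRRM2 points.

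Among 9 interferon ligand genes, IFNB1, IFNA1, IFNA2, IFNK, IFNL1, IFNL2 and IFNG had 0 reads in every library, and IFNL3 had 1 read in all. At this depth, 0 reads do not show that a gene was not expressed. IFNE, a type I interferon of epithelia, measured 2.68, 2.57 and 2.15 CPM in the control libraries, 9.14, 8.13 and 8.84 in shRRM2 and 2.48, 3.24 and 2.37 in shRRM2/shp16. Its shRRM2 libraries lay above all others. The log2 fold change of IFNE was 1.80 ± 0.142 for shRRM2 over control (edgeR adjusted p = 9.3e-15), -1.68 ± 0.14 for shRRM2/shp16 over shRRM2 (adjusted p = 4.0e-14) and 0.12 ± 0.175 for shRRM2/shp16 over control (adjusted p = 0.571). IFNE overlaps the long RNA MIR31HG on the same strand, which averaged 15.2 CPM in control, 22.2 in shRRM2 and 8.88 in shRRM2/shp16, so reads of the pair may be split, and the part of MIR31HG in the IFNE values was not tested.

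All 12 receptor and JAK-STAT genes were tested. In shRRM2 against control 5 were higher and 4 lower, in shRRM2/shp16 against shRRM2 9 and 1, and in shRRM2/shp16 against control 7 and 2. These are 41.7% and 33.3%, 75% and 8.33%, and 58.3% and 16.7% of the list, beside 29.0% and 31.8%, 31.9% and 29.1%, and 30.0% and 32.4% of all tested genes. IFNAR1 averaged 66.5 ± 1.43 CPM in control, 73.9 ± 1.42 in shRRM2 and 110 ± 5.15 in shRRM2/shp16 (SD, n = 3). IFNAR2 averaged 10.7 ± 0.148 CPM in control, 14.0 ± 1.02 in shRRM2 and 18.1 ± 0.916 in shRRM2/shp16. Both rose in each of the 3 comparisons, with log2 fold changes of 0.16, 0.57 and 0.73 for IFNAR1 and 0.38, 0.37 and 0.75 for IFNAR2. The feedback inhibitor SOCS1 averaged 16.8 ± 1.19 CPM in control, 7.21 ± 1.502 in shRRM2 and 8.85 ± 0.820 in shRRM2/shp16, and it was lower than control in shRRM2 (-1.23) and in shRRM2/shp16 (-0.93). SOCS1 was also called higher in shRRM2/shp16 than in shRRM2 (0.30), though these groups overlapped.

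SOCS3, which mainly restrains signalling by the IL-6 family, averaged 59.4 ± 2.36 CPM in control, 31.0 ± 1.12 in shRRM2 and 187 ± 5.05 in shRRM2/shp16. Its log2 fold change was -0.94 ± 0.049 for shRRM2 over control (edgeR adjusted p = 1.3e-20), 2.59 ± 0.044 for shRRM2/shp16 over shRRM2 (adjusted p = 3.3e-39) and 1.65 ± 0.039 for shRRM2/shp16 over control (adjusted p = 5.8e-34). The interferon gamma receptor genes IFNGR1 and IFNGR2 averaged 25.5 CPM in control, 24.6 in shRRM2 and 30.4 in shRRM2/shp16, and 1.40 CPM in control, 2.55 in shRRM2 and 1.95 in shRRM2/shp16. IFNGR1 was called higher in shRRM2/shp16 than in shRRM2 (0.31) and control (0.26), and IFNGR2 in shRRM2 than in control (0.86). IL10RB, a chain shared by the receptors of interferon lambda and the IL-10 family, was higher than control in shRRM2 (0.43) and in shRRM2/shp16 (0.49). The interferon lambda receptor gene IFNLR1 averaged 0.445 ± 0.103 CPM in control, 0.975 ± 0.203 in shRRM2 and 0.420 ± 0.166 in shRRM2/shp16 and was called higher in shRRM2 than in control (1.12) and lower in shRRM2/shp16 than in shRRM2 (-1.21). IFNLR1 passed the read filter only through its level in shRRM2 and had to differ there. Of 7 further interferon regulatory factors 4 were tested, with 1 higher and 2 lower in shRRM2, 3 and 1 in shRRM2/shp16 against shRRM2, and 2 and 2 against control. These are 25% and 50%, 75% and 25%, and 50% and 50% of the 4. The shares of all tested genes were 29.0% and 31.8%, 31.9% and 29.1%, and 30.0% and 32.4%. Between shRRM2/shp16 and shRRM2, IRF2 rose by 0.73 on the log2 scale.

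A wider list of 45 interferon-stimulated genes outside the 33 had 39 tested. Among the untested, TAP1 and PSMB9 each have 8 identifiers under their symbol, and the one used held 1 read over the libraries. Whether their reads were lost between identifiers was not tested, so their levels are uncertain. Of the 39, 14 were higher and 11 lower in shRRM2 against control (median 0.01 on the log2 scale). For shRRM2/shp16 the counts were 18 and 16 against shRRM2 (median 0.11) and 16 and 11 against control (median 0.04). The shares in shRRM2 against control, 35.9% higher and 28.2% lower, lie near the 29.0% and 31.8% of all tested genes. In shRRM2/shp16 they were 46.2% and 41% against shRRM2, beside 31.9% and 29.1%, and 41% and 28.2% against control, beside 30.0% and 32.4%. TRIM22, a restriction factor of the tripartite motif family, averaged 19.2 ± 1.11 CPM in control, 49.1 ± 1.44 in shRRM2 and 32.0 ± 0.869 in shRRM2/shp16 (SD, n = 3) and was higher in shRRM2 (1.36). SAMHD1, which breaks down dNTPs, averaged 32.3 ± 0.458 CPM in control, 22.6 ± 1.63 in shRRM2 and 18.7 ± 0.931 in shRRM2/shp16 and was lower in each comparison, with -0.51, -0.28 and -0.79. DHX58 (LGP2), the third sensor of the RIG-I family, rose by 0.92 in shRRM2 and by a further 0.76 in shRRM2/shp16, at a level of 0.511 ± 0.117 CPM in control, 0.940 ± 0.265 in shRRM2 and 1.61 ± 0.0719 in shRRM2/shp16. TNFSF10, the death ligand TRAIL, and PLSCR1, a phospholipid scramblase, rose by 1.27 and 1.14 in shRRM2/shp16 against shRRM2. TNFSF10, at 0.328 CPM in control, 0.461 in shRRM2 and 1.11 in shRRM2/shp16, passed the read filter only through shRRM2/shp16 and had to differ there. The restriction factor gene TRIM5 rose by 0.61, APOL6 by 0.98, GBP2 by 0.85 and UBE2L6, which encodes the ISG15 conjugating enzyme, by 0.60 in that comparison. GBP1, PML, SAMD9L, SP110 and DDX60L fell there, with log2 fold changes of -0.85, -0.81, -1.02, -0.73 and -0.96. Over control, shRRM2/shp16 was higher in PARP14 (0.79) and LGALS3BP (0.67) and lower in TRIM14 (-1.12).

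The authors' deposited table compares shRRM2/shp16 with shRRM2. Of the 24 tested members, 6 were marked significant in the authors' deposited table, with log2 fold changes of 1.18 for OAS3, 0.60 for IFI6, 0.96 for IFI35, 1.34 for IFIH1, 0.88 for USP18 and -0.21 for DDX58. All 6 were also called here from the counts with the same sign, where 16 members were called. For CXCL10 the authors' deposited table gives 4.66 on the log2 scale (q-value 0.0933), for HERC6 -0.37 (q-value 0.546) and for XAF1 1.15 (q-value 0.124). HERC6 and XAF1 are the 2 tested members whose sign there is opposite to that from the counts, where HERC6 had 0.44 and XAF1 -0.01, which was not called.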

How the data were processed

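Per the labels' protocols, total RNA was depleted of ribosomal RNA and made into stranded libraries. For each of 9 libraries the authors deposited counts of reads by Ensembl gene, in the layout of HTSeq. The submitters' processing notes name TopHat2 2.0.9, Cufflinks 2.0.2, Cuffdiff and the GRCh38 build. Which annotation and strand option the counting used is not given in the sources used here. A deposited table holds log2 values that were found to equal log2(RPKM/K + 1) with K the number of bases in a kilobase, from which RPKM was recovered. In this table, 8 of 9 columns match the counts and that of shRRM2 replicate c does not. Per the file headers, further columns give the authors' own log2 fold change, p-value and q-value between shRRM2/shp16 and shRRM2, where positive was found to mean higher in shRRM2/shp16. There were 0 columns of values that matched no sample.

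The test was edgeR's quasi-likelihood F test (version 4.0.16, R 4.3.3, two-sided) with filterByExpr and TMM, fitted to the 9 libraries at once by group, which leaves 6 residual degrees of freedom. Tally lines that name no gene stayed out of the library sizes. The Benjamini-Hochberg adjustment ran over all 16561 genes in the test, and calls needed an adjusted p under 0.05. CPM are counts per TMM-scaled library. RPKM in the text come from the counts, total gene counts and the lengths implied by the deposited table. Genes with few reads are given by counts and by the ratio of summed counts with an exact 95% interval. Reads carry no molecular identifiers, so intervals cover counting error only.

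The 33 members and all other lists were chosen with earlier results of these data known. Members called with at least a 1.5-fold change are given in every library, the others by mean ± SD or by counts. Genes of the other lists are counted by list and named where they pass that size or are ligands or receptors, and some genes of these lists that the rule would name are not reported here. Positions come from GENCODE release 29 (GRCh38) and promoters from RefSeq. Alternatives were RLE size factors, DESeq2 1.42.0, no read filter, at least 10 counts in every library, only the 6 libraries compared, a replicate block, limma 3.58.1 on log2(RPKM + 1) with and without shRRM2 replicate c, and leaving out each library in turn. A pseudocount of 0.1 was added after seeing the data.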

Additional observations from a re-analysis of the deposited data

How the results depend on the processing

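Of 41 called differences of members, 31 kept direction and call in each alternative that gave a value (17 or 18 of them), and 10 lost the call in at least 1. Those 10 are IFI6 and IFI44 in shRRM2 against control, HERC6 and IFITM1 in shRRM2/shp16 against shRRM2, and IFIT1, IFIT2, MX1, IFI35, HERC6 and IFITM1 in shRRM2/shp16 against control. Of 31 differences not called, 19 changed direction or side of the threshold in some alternative. In shRRM2/shp16 against control, the 9 members higher became 5 with DESeq2 and 6 without control replicate a, without control replicate c or without shRRM2/shp16 replicate b. The 5 members lower there became 3 with limma on RPKM, 3 without shRRM2 replicate c in that fit, 3 with a pseudocount of 0.1, and 3 to 5 without single libraries, with 3 without control replicate c. Leaving out single libraries gave 8 to 11 lower and 2 higher members in shRRM2 against control, and 12 to 14 higher and 2 to 3 lower in shRRM2/shp16 against shRRM2. With the replicate block the counts were 2 higher and 9 lower, 13 and 2, and 8 and 5. The replicate letters gave no sign of pairing between groups. Same-letter libraries correlated at -0.020 to 0.049 and different-letter ones at -0.048 to 0.036, which cannot show that the libraries were not paired.

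Sign changes met only differences that were not called, all log2, and the cause was not tested. In shRRM2 against control, IFI44L, from 0.11, gave -0.56 to 0.51 without single libraries. IFIH1, from -0.12, gave 0.009 with limma, 0.002 with limma with a pseudocount of 0.1 and -0.43 to 0.12 without single libraries. CXCL10, from -0.044, gave 0.17 with limma, 0.037 with limma without shRRM2 replicate c, 0.64 with limma with a pseudocount of 0.1 and -1.62 to 0.72 without single libraries. HERC6, from -0.080, gave 0.044 with limma without shRRM2 replicate c and -0.19 to 0.094 without single libraries. IFITM1, from 0.020, gave -0.021 with no read filter and -0.031 to 0.079 without single libraries. EPSTI1, from 0.032, gave -0.009 with no read filter and -0.077 to 0.17 without single libraries. In shRRM2/shp16 against shRRM2, IFIT5, from -0.028, gave 0.055 with limma, 0.061 with limma without shRRM2 replicate c, 0.064 with limma with a pseudocount of 0.1 and -0.086 to 0.019 without single libraries. IFI44L, from -0.54, gave -0.94 to 0.13 without single libraries. IRF9, from 0.061, gave -0.026 with limma, -0.003 with limma without shRRM2 replicate c, -0.063 with limma with a pseudocount of 0.1 and -0.082 to 0.16 without single libraries. XAF1, from -0.012, gave 0.045 with limma, 0.022 with limma without shRRM2 replicate c, 0.17 with limma with a pseudocount of 0.1, 0.006 with no read filter and -0.15 to 0.11 without single libraries. In shRRM2/shp16 against control, ISG15, from -0.11, gave 0.000 in the 3 limma settings. IFI6, from 0.024, gave -0.025 to 0.070 without single libraries. Members with few reads in each library limit what can be seen, since 9 of the 33 could not be tested.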
